A study of Mus musculus with 10 samples.

Results

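Macrophage marker transcripts were measured in whole livers of mice whose hepatocyte lineage had lost Dicer1, the enzyme that cuts microRNA precursors. The 40 genes on the list are used as markers of Kupffer cells or of macrophages in general, and they were chosen by name rather than by their values in the mutant livers, although with earlier results of these arrays known. Of the 40, 37 had a probe set that carried their symbol alone, among 12366 genes measured in all. Cx3cr1, Trem2 and Gpnmb had none and are not analysed here.

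Kupffer cells are the resident macrophages of the liver sinusoids. They descend mostly from embryonic precursors, maintain themselves by dividing under the control of the growth factor receptor Csf1r, and clear particles, aged erythrocytes and complement-tagged material from portal blood. After injury, monocytes from the blood can enter the liver and become macrophages that at first lack the resident markers Clec4f and Timd4. The 37 genes were therefore described as 6 resident Kupffer markers, 3 complement C1q chains, 15 general macrophage genes, 9 genes shared with other leukocytes, and 4 genes of recruited or activated macrophages.

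The mutant group held 5 livers of DicerloxP/loxP;Afp-Cre+ mice, in which Cre recombinase is driven by the alpha-fetoprotein promoter, which is active in fetal liver cells of the hepatocyte and bile duct lineage, whereas macrophages arise from another lineage. The control group held 5 livers, for which no genotype is given beyond the word control. All mice were of mixed strain, 28 days old and fasted for 5 h, and each liver gave 1 array, so that hepatocyte and macrophage RNA were measured together. Values are on a log2 scale, and differences are mutant minus control, so a difference of 1 means a doubled signal.

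The mutation was visible in the arrays. On the Dicer1 probe set with the larger loss, the mean was 5.75 ± 0.23 in mutant livers and 8.06 ± 0.04 in control livers (SD, n = 5 each). The difference there was -2.31 (SE 0.10, limma adjusted p = 4.1e-05). The other Dicer1 set, brighter in both groups, averaged 7.06 ± 0.10 in mutant livers and 8.08 ± 0.10 in control livers. Its difference was smaller, -1.03 (SE 0.07, limma adjusted p = 0.000678). The first principal component over all genes, with 50.4% of the variance, placed mutant livers 1 to 4 between 23.5 and 47.3 and the control livers between -31.8 and -21.0, but mutant liver 5 at -9.50, nearer to the control livers. All pairs of arrays correlated at 0.970 to 0.993 and no 2 were identical. Results that change without mutant liver 5 are therefore given both ways.

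Macrophage marker transcripts were higher in the mutant livers across most of the list. In the limma fit over all genes, 24 of 37 were called higher at a Benjamini-Hochberg adjusted p under 0.05, 0 were called lower and 13 were not called, while 8.62% of all genes were called higher and 11.5% lower. At an unadjusted p under 0.05, 28 of the 37 were higher and again 0 lower, beside 1848 higher and 2462 lower of all 12366 genes. The difference was positive for 35 genes and negative for 2, with a median of 0.62 and a range of -0.78 to 1.25, against a median of -0.01 over all genes. In 17 of 37 genes every mutant liver lay above every control liver, as in 6.17% of all genes, and in 0 genes every mutant liver lay below every control liver, as in 6.99% of all genes. Because these are whole livers, more macrophages, more marker RNA per macrophage and marker RNA from other cells cannot be told apart.

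The number of calls depended on single arrays more than the differences did. Without mutant liver 5 there were 19 calls, beside 11.1% of all genes called higher, and the median was 0.63. Leaving out mutant livers 1, 2, 3 and 4 gave 8, 10, 19 and 9 calls, and leaving out control livers 1 to 5 gave 9, 17, 16, 11 and 12. In these settings 5.07% to 6.70% of all genes were called higher, below the 8.62% with all 10 arrays. Of the 24 called genes, 8 kept their call without any 1 of the 10 arrays, namely Laptm5, Cybb, Tyrobp, Clec4f, Lyz2, Lyz1, Ctss and C1qa. The other 16 lost it without at least 1 array. Lyz1 may repeat the signal of Lyz2, as described below, so these counts may hold that signal more than once. Brightly measured genes were called more often: 21 of the 28 members at or above the median level of all genes, 7.63, were called higher, against 12.5% of all genes there, and 3 of the 9 members below it, against 4.75% of all genes there.

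**Figure D1:**
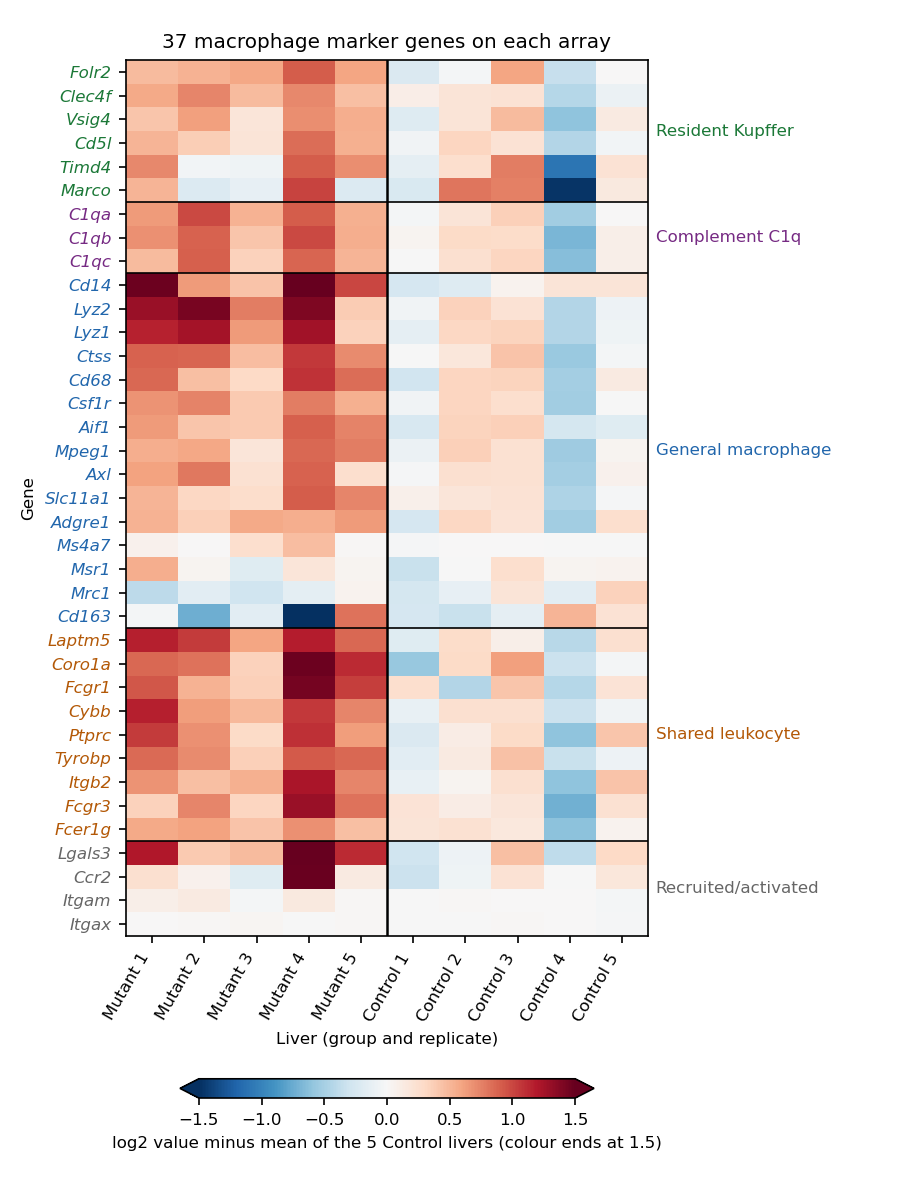
Heat map of the 37 measured markers (rows, grouped by class) in the 5 mutant and 5 control livers (columns); colour is the log2 value minus the mean of the control livers. Most rows are higher in the mutant livers, mutant liver 4 and control liver 4 hold many of the extremes, and Cd163 is lowest in mutant liver 4.

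Of the 6 resident Kupffer markers, Clec4f and Folr2 were called higher, 2 of 6, with a median difference of 0.49 and a range of 0.20 to 0.62, and the positive differences of the other 4 were not called. The remaining 31 genes had 22 calls and a median of 0.70, so that the resident median lay 0.21 below on the log2 scale, a difference that was not tested. Without each array in turn that gap was -0.21 to -0.12. The gap is to the pooled 31 genes and does not hold for each class among them. The class medians were 0.70 for C1q, 0.59 for general, 0.75 for shared and 0.21 for recruited or activated genes. The recruited or activated class, with 1 of 4 called, thus lay below the resident one. Of those 4, Itgam and Itgax were below the 25th percentile of all values on every array. In 1 of 6 resident markers and in 16 of the 31 others, every mutant liver lay above every control liver, as in 6.17% of all genes. The 2 of 6 and 22 of 31 calls stand beside 8.62% of all genes called higher, and 6 genes are few.

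Clec4f, a lectin receptor found on Kupffer cells and hardly elsewhere in the mouse, was at 11.59, 11.76, 11.50, 11.75 and 11.48 in mutant livers 1 to 5, against 11.12, 11.22, 11.25, 10.59 and 10.94 in control livers 1 to 5. Every mutant liver lay above every control liver. The difference was 0.59 (SE 0.13, adjusted p = 0.0155), a 1.51-fold higher signal, and it was called without any 1 array (adjusted p 0.0108 to 0.041). Folr2, the folate receptor beta of tissue macrophages, was at 8.38, 8.44, 8.49, 8.83 and 8.51 in mutant livers, against 7.69, 7.88, 8.50, 7.57 and 7.92 in control livers. Control liver 3 was as high as the mutant livers here. The difference of 0.62 (SE 0.17, adjusted p = 0.0318) was called without mutant liver 5 or control liver 3 but not without any of the other 8 arrays (adjusted p 0.051 to 0.0729).

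Cd5l, a secreted scavenger protein of macrophages, was at 12.95, 12.81, 12.63, 13.28 and 12.98 in mutant livers, against 12.39, 12.76, 12.66, 11.998 and 12.40 in control livers. Control livers 2 and 3 reached the lowest mutant value. Its difference of 0.49 (95% confidence interval 0.13 to 0.85) missed the threshold (adjusted p = 0.0571), and so did the 0.49 (0.06 to 0.92) of Vsig4, the complement receptor of Kupffer cells (adjusted p = 0.1). Timd4, which binds phosphatidylserine on dying cells and marks long-lived resident macrophages, was at 6.98, 6.21, 6.20, 7.17 and 6.96 in mutant livers, against 6.12, 6.51, 7.02, 5.17 and 6.48 in control livers. The Timd4 groups overlapped widely, with a difference of 0.45 (-0.32 to 1.21, adjusted p = 0.404) that was 0.17 without control liver 4. Marco, a scavenger receptor for bacteria, was at 7.48, 6.77, 6.85, 7.99 and 6.77 in mutant livers, against 6.74, 7.78, 7.72, 5.50 and 7.12 in control livers. Its difference of 0.20 (-0.79 to 1.19, adjusted p = 0.815) turned to -0.17 without control liver 4, which had the lowest value. These intervals leave room for changes as large as that of Clec4f.

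Sequence upstream of the start sites was compared because the members moved together. RefSeq promoters on GRCm38.p6 were on hand for 30 of the 37 genes, 35 promoters in all, and the 250 bases upstream of each start were searched on both strands. GAGGAAG, a core letter string of sites of PU.1, the transcription factor that directs the macrophage lineage, was in 10 of the 35 promoters, of 9 genes, a share of 28.6%, against 10.6% of all 32851 promoters. TGANTCA, the AP-1 string, was in 5 of 35 (14.3%, against 6.75% of all), and CACGTG, an E-box, in 0 of 35 (against 6.02% of all). The 4 promoters shown are of 2 resident markers, 1 called and 1 not, of a called Fc receptor gene and of the mannose receptor gene, whose value was not higher, and capitals mark GAGGAAG, which reads CTTCCTC in all of them since it lies on the opposite strand. The Clec4f promoter (chr6:83656117-83656366, minus strand) holds none, Cd5l (chr3:87357631-87357880, plus strand) has its first base at position -67, Fcgr1 (chr3:96293970-96294219, minus strand) at -56, and Mrc1 (chr2:14229164-14229413, plus strand) at -168 and -36, all counted from the start site.
Clec4f: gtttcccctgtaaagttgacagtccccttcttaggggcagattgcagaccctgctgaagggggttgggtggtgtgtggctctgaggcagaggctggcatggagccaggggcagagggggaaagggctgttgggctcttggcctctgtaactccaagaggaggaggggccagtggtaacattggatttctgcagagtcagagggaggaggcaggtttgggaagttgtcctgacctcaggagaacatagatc
Cd5l: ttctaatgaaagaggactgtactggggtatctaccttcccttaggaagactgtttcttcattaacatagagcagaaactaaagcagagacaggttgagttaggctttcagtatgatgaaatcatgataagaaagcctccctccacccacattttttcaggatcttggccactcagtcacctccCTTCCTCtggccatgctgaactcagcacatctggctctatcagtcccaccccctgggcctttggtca
Fcgr1: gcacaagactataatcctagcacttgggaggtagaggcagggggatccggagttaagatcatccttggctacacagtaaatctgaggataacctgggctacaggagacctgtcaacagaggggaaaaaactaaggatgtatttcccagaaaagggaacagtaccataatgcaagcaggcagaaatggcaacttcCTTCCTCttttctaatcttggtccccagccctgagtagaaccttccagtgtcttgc
Mrc1: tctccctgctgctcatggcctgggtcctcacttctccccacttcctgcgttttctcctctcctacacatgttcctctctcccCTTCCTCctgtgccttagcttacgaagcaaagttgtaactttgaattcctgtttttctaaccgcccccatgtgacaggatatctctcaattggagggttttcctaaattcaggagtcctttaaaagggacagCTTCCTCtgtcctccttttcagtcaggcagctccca
Besides Cd5l, Fcgr1 and Mrc1, the string was found upstream of Axl, C1qc, Fcgr3, Itgam, Laptm5 and Marco. Of these 9 genes, C1qc, Fcgr1 and Laptm5 were called higher, while Axl, Cd5l, Fcgr3, Itgam, Marco and Mrc1 were not. The share among members is thus not a share among called genes, and a link between string and calls was not tested. Fcgr3 entered with overlapping promoters that hold the same site, at -16 and -7.

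The complement C1q chains were all called higher. C1qa, C1qb and C1qc encode the 3 chains of the molecule that starts the classical complement pathway, which macrophages make in most tissues. C1qa was at 10.65, 10.99, 10.53, 10.92 and 10.53 in mutant livers, against 9.97, 10.19, 10.36, 9.48 and 10.003 in control livers, a difference of 0.72 (SE 0.17, adjusted p = 0.0191) that was called without any 1 array. C1qb was at 11.24, 11.45, 10.98, 11.55 and 11.10 in mutant livers, against 10.60, 10.84, 10.83, 9.88 and 10.65 in control livers. In all 3 genes every mutant liver lay above every control liver, and control liver 4 was lowest.

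The C1qb difference was 0.70 (SE 0.19, adjusted p = 0.0331), and its other 2 probe sets gave 0.90 and 0.87. The names of those 2 sets end in a suffix given to sets whose probes may also bind other transcripts. C1qb lost its call without mutant liver 1, 2 or 4 or control liver 1 or 5 (adjusted p 0.0573 to 0.0771). C1qc was at 10.75, 11.17, 10.62, 11.16 and 10.79 in mutant livers, against 10.28, 10.52, 10.60, 9.64 and 10.36 in control livers. Its difference of 0.62 (SE 0.19, adjusted p = 0.0474) was near the threshold, and it was called without mutant liver 5 but not without any of the other 9 arrays (adjusted p 0.0533 to 0.106). With the adjustment over all probe sets C1qc was not called (limma adjusted p = 0.0621).

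Of the 15 general macrophage genes, 10 were called higher, beside 8.62% of all genes, and 0 lower, with a median difference of 0.59. In 8 of the 15 every mutant liver lay above every control liver, as in 6.17% of all genes. Without mutant liver 5, 7 were called. Lyz2, the lysozyme of macrophages, which digests bacterial cell walls, was at 10.93, 11.05, 10.40, 11.04 and 10.02 in mutant livers, against 9.59, 9.98, 9.85, 9.19 and 9.56 in control livers. All mutant livers were above all control livers, with mutant liver 5 only just so. The difference was 1.05 (SE 0.23, adjusted p = 0.0157), a 2.07-fold higher signal, called without any 1 array (adjusted p 0.00226 to 0.041).

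Lyz1, the lysozyme of intestinal Paneth cells, gave 12.81, 12.90, 12.29, 12.91 and 11.997 in mutant livers, against 11.52, 11.96, 11.98, 11.21 and 11.58 in control livers. Its difference was 0.93 (SE 0.22, adjusted p = 0.0199), and a second probe set of the same kind gave 0.88, with mutant liver 5 at 10.79 below control liver 3 at 10.85. The names of both bright probe sets end in a suffix that the array maker gives to sets whose probes may also bind other transcripts. The remaining Lyz1 probe set was at 2.56 in mutant livers and 2.55 in control livers, below 3.60, the 25th percentile of all values, on all 10 arrays, and did not differ beyond its spread (difference 0.01, SE 0.03, adjusted p over all probe sets = 0.958). The near-identical Lyz1 and Lyz2 transcripts cannot be told apart on the bright sets, so the call for Lyz1 is uncertain and may repeat that for Lyz2.

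**Figure D2:**
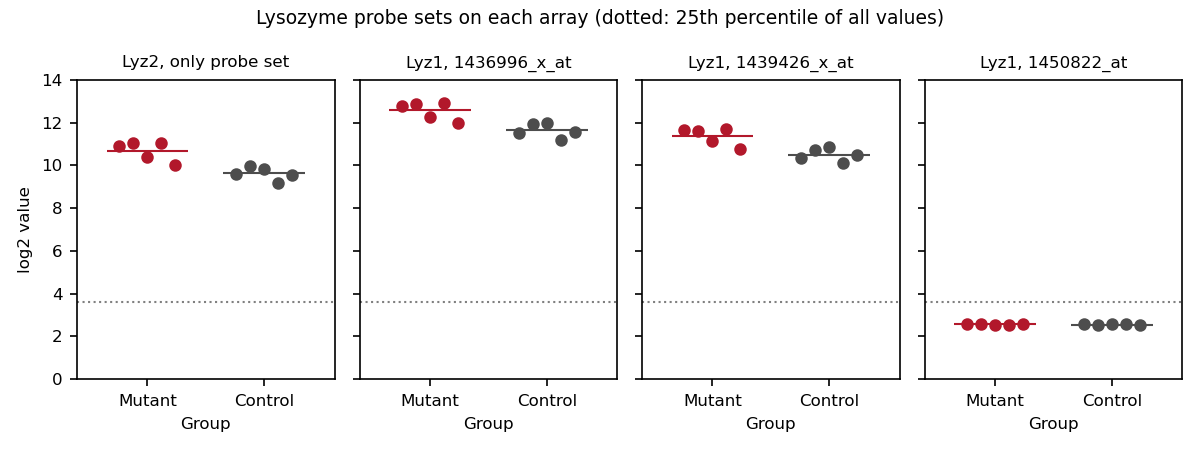
Log2 values of the Lyz2 probe set and the 3 Lyz1 probe sets in each mutant and control liver (points), with group means (bars). The Lyz2 set and the brightest Lyz1 set separate the groups, the second bright Lyz1 set has mutant liver 5 (10.79) below control liver 3 (10.85), and the dim Lyz1 set lies near 2.56 in mutant livers and 2.55 in control livers.

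Ctss, the lysosomal protease cathepsin S, was at 11.91, 11.90, 11.49, 12.09 and 11.73 in mutant livers, against 11.02, 11.20, 11.45, 10.47 and 11.00 in control livers. Its difference of 0.80 (SE 0.18, adjusted p = 0.0174) was called without any 1 array. Csf1r, the receptor through which Csf1 and Il34 keep macrophages alive, was at 11.17, 11.23, 10.89, 11.25 and 11.02 in mutant livers, against 10.44, 10.81, 10.75, 9.96 and 10.48 in control livers. In both genes all mutant livers lay above all control livers. The Csf1r difference was 0.62 (SE 0.16, adjusted p = 0.0244), 0.55, not called, and 0.50, called, on its other probe sets (adjusted p over all probe sets = 0.0673 and 0.0397), and it lost its call without mutant liver 1, 2 or 4 or control liver 1 (adjusted p 0.0504 to 0.059).

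The other 6 called genes of this class each depended on several arrays. Cd14, the co-receptor for bacterial lipopolysaccharide, had the largest difference of the list, 1.25 (SE 0.39, adjusted p = 0.0478), with 7.01, 6.18, 5.96, 8.26 and 6.54 in mutant livers, against 5.29, 5.35, 5.58, 5.73 and 5.73 in control livers. Mutant liver 4 stood above the other mutant livers, and without it the difference was 0.89 and still called (adjusted p = 0.0362), whereas the call was lost without mutant liver 1 or 2 or any 1 control liver (adjusted p 0.0562 to 0.0956). Cd68, a lysosomal glycoprotein, differed by 0.70 (SE 0.21, adjusted p = 0.0418) and was called only without mutant liver 3 or control liver 2 or 3 (adjusted p up to 0.0926 otherwise). Aif1, an actin-binding protein of macrophages, differed by 0.62 (SE 0.16, adjusted p = 0.0278) and lost its call without mutant liver 1 or 4 or control liver 1, 4 or 5 (up to 0.0646).

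Mpeg1, the pore-forming protein perforin-2, differed by 0.59 (SE 0.18, adjusted p = 0.0461) and was called only without mutant liver 3 or control liver 2 (up to 0.103 otherwise). Slc11a1, the phagosomal metal transporter Nramp1, differed by 0.54 (SE 0.16, adjusted p = 0.0431) and was called only without mutant liver 3 (up to 0.0904 otherwise). Adgre1, an adhesion receptor long used to stain mouse macrophages, differed by 0.52 (SE 0.16, adjusted p = 0.0468) and was called only without control liver 2 (up to 0.0959 otherwise). For Aif1, Slc11a1 and Adgre1 the groups did not overlap, while for Cd68 and Mpeg1 mutant liver values reached into the control range. Axl, a receptor kinase for the uptake of dying cells, differed by 0.56 (SE 0.18) and was not called (adjusted p = 0.0561), except without mutant liver 5, where it was 0.63 (adjusted p = 0.0344), with dim genes left out of the fit (adjusted p = 0.0444) and with array weights (adjusted p = 0.0475). Ms4a7 was below 3.60 on all 10 arrays and gave 0.16 (adjusted p = 0.216).

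On the general list, Mrc1, Cd163 and Msr1 were not called in either direction. Mrc1, the mannose receptor, was at 9.82, 10.06, 9.91, 10.06 and 10.26 in mutant livers, against 9.95, 10.09, 10.41, 10.05 and 10.56 in control livers. The groups overlapped and the difference was -0.19 (-0.48 to 0.10, adjusted p = 0.343). Mrc1 is also made by sinusoidal endothelial cells of the liver, whose own markers are given further on. Cd163, the receptor for haemoglobin bound to haptoglobin, was at 8.39, 7.69, 8.26, 4.62 and 9.23 in mutant livers, against 8.17, 8.08, 8.28, 8.92 and 8.64 in control livers. Mutant liver 4 was far below all others and set the difference of -0.78 (-2.45 to 0.89, adjusted p = 0.514), which was -0.02 without that liver (adjusted p = 0.979).

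Msr1, the class A scavenger receptor for modified lipoproteins, was at 9.46, 8.96, 8.74, 9.09 and 8.96 in mutant livers, against 8.58, 8.91, 9.17, 8.95 and 8.96 in control livers, a difference of 0.13 (-0.19 to 0.45, adjusted p = 0.587). Its probe sets did not point the same way, with 0.13, 0.03 and 0.19 on 3 of them and -0.69 on the dimmest. That set was at 3.80, 3.89, 3.74, 4.50 and 4.79 in mutant livers, against 4.43, 4.52, 5.51, 4.87 and 4.84 in control livers, and was not called (adjusted p over all probe sets = 0.12).

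**Figure D3:**
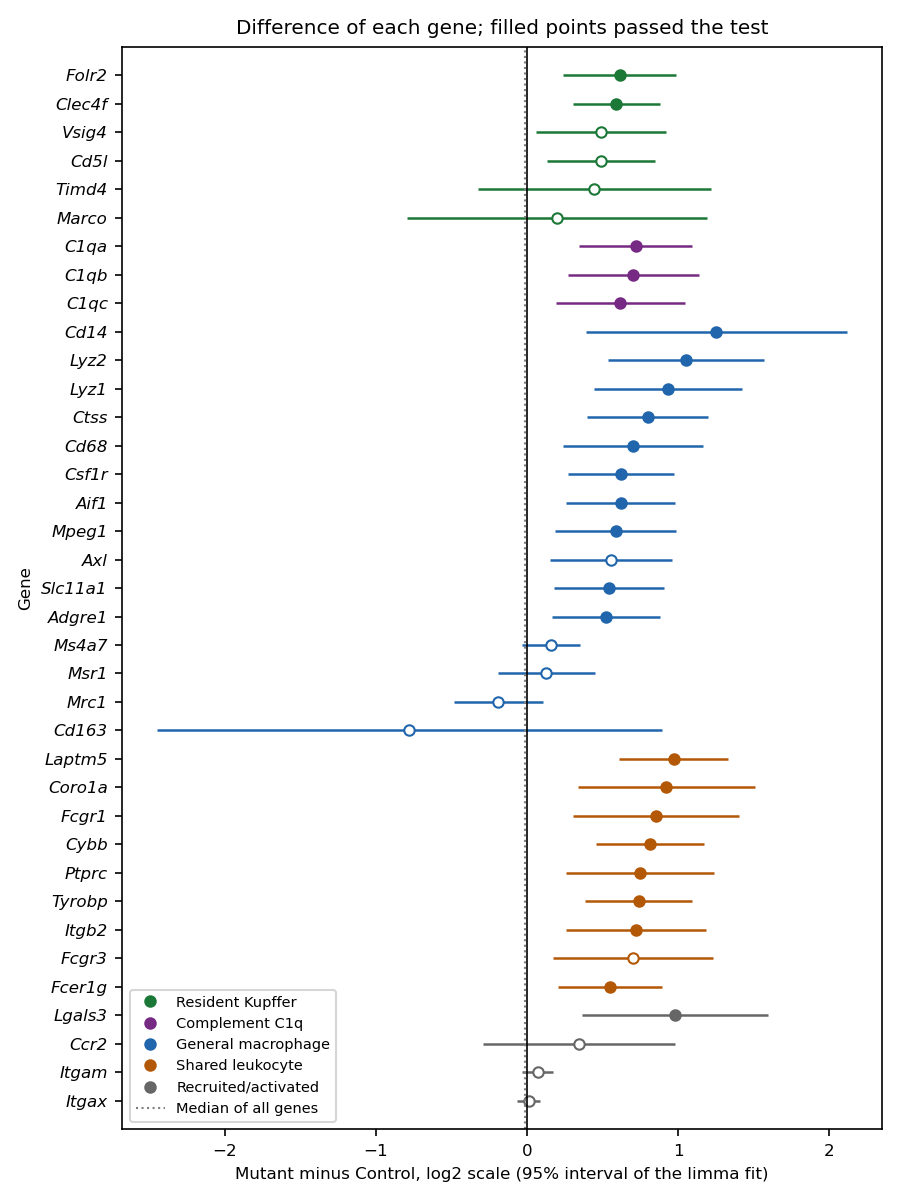
Difference in log2 value, mutant minus control, for each of the 37 measured markers, grouped by class (points, with 95% confidence intervals; filled points are called at an adjusted p under 0.05). Most intervals lie above 0, while those of Timd4, Marco, Ms4a7, Msr1, Mrc1, Cd163, Ccr2, Itgam and Itgax include 0; the dotted line is the median of all genes, -0.01.

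Of the genes that macrophages share with other leukocytes, 8 of 9 were called higher, beside 8.62% of all genes, with a median difference of 0.75. In 5 of the 9 every mutant liver lay above every control liver, as in 6.17% of all genes. Without mutant liver 5, 6 were called. Laptm5, a lysosomal membrane protein of blood cells, was at 9.84, 9.72, 9.26, 9.85 and 9.53 in mutant livers, against 8.49, 8.95, 8.75, 8.26 and 8.91 in control livers. Its groups were fully apart, with the smallest p of the list (difference 0.97, SE 0.16, adjusted p = 0.00764), a 1.96-fold higher signal that was called without any 1 array (adjusted p 0.00417 to 0.0219). This bright set has the same suffix as the bright Lyz1 sets, and the other 2 Laptm5 sets gave smaller differences, 0.57 (adjusted p over all probe sets = 0.0233) and 0.60 (0.199, not called). Cybb, the catalytic subunit of the phagocyte NADPH oxidase, was at 9.17, 8.63, 8.48, 9.07 and 8.74 in mutant livers, against 7.89, 8.25, 8.24, 7.68 and 7.95 in control livers, again without overlap. The Cybb difference was 0.82 (SE 0.16, adjusted p = 0.0115), called without any 1 array, and its other probe sets gave 0.99, called, and 0.72, not called (adjusted p over all probe sets = 0.0155 and 0.104).

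Tyrobp, the adaptor DAP12 of myeloid receptors, was at 10.32, 10.17, 9.82, 10.39 and 10.32 in mutant livers, against 9.30, 9.60, 9.90, 9.13 and 9.39 in control livers. Mutant liver 3 was below control liver 3, and the other mutant livers were above all controls. The difference was 0.74 (SE 0.16, adjusted p = 0.015), called without any 1 array. Fcer1g, the common signalling chain of Fc receptors, was at 8.83, 8.86, 8.69, 8.94 and 8.71 in mutant livers, against 8.45, 8.48, 8.41, 7.64 and 8.31 in control livers. The groups were apart, with a difference of 0.55 (SE 0.15, adjusted p = 0.0357), and the call was lost without any 1 of mutant livers 1 to 4 or control livers 3 and 5 (adjusted p 0.0561 to 0.0816).

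Coro1a, an actin regulator of blood cells, differed by 0.92 (SE 0.26, adjusted p = 0.0357) and was called only without mutant liver 3 or control liver 2 or 3 (up to 0.0792 otherwise). Its dimmer probe set gave 0.61 and was not called (adjusted p over all probe sets = 0.222), nor was the mean of both sets (0.77, adjusted p = 0.0689). Fcgr1, the high-affinity IgG receptor, differed by 0.85 (SE 0.24, adjusted p = 0.0378) and was called only without mutant liver 3 or control liver 3 (up to 0.0829 otherwise). Ptprc, the pan-leukocyte antigen CD45, differed by 0.75 (SE 0.22, adjusted p = 0.0411) and was called only without mutant liver 3 or 5 or control liver 5 (up to 0.0925 otherwise). Itgb2, the beta chain of the leukocyte integrins, differed by 0.72 (SE 0.21, adjusted p = 0.0378) and was called only without mutant liver 5 or control liver 5 (up to 0.078 otherwise). Fcgr3, a low-affinity IgG receptor, was not called, although all mutant livers lay above all control livers (0.70, SE 0.24, adjusted p = 0.0631). These genes do not mark macrophages alone, and the markers of other leukocytes are given further on.

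Genes of recruited or activated macrophages were measured poorly. Only 4 of the 7 listed had a probe set, and 2 of the 4, Itgam and Itgax, the alpha chains of the CD11b and CD11c integrins, were below 3.60 on all 10 arrays, with differences of 0.07 and 0.01 (adjusted p = 0.314 and 0.876). Lgals3, the lectin galectin-3 of activated macrophages, was called higher, at 8.56, 7.74, 7.83, 9.07 and 8.47 in mutant livers, against 7.05, 7.28, 7.81, 6.97 and 7.65 in control livers. Mutant liver 2 was below control liver 3, and the difference of 0.98 (SE 0.27, adjusted p = 0.0349) lost its call without mutant liver 1 or 4 or control liver 1, 2 or 4 (adjusted p 0.067 to 0.0775). Ccr2, the chemokine receptor that brings monocytes from the marrow, was at 4.17, 3.99, 3.74, 5.40 and 4.06 in mutant livers, against 3.60, 3.86, 4.15, 3.92 and 4.10 in control livers. Mutant liver 4 alone stood out, and the difference of 0.35 (-0.29 to 0.98, adjusted p = 0.435) was 0.06 without it.

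The livers differed in how far the whole list had moved. The mean deviation of the 37 genes from the control mean was 0.64, 0.50, 0.29, 0.83 and 0.56 in mutant livers 1 to 5, against -0.11, 0.15, 0.28, -0.41 and 0.09 in control livers 1 to 5, so that mutant liver 3 and control liver 3 nearly met. Among the 5 mutant livers, liver 4 was highest for 27 of the 37 genes and liver 3 lowest for 25. Among the 5 control livers, liver 3 was highest for 19 and liver 4 lowest for 27. For the 6 resident markers alone the mean deviation was 0.53, 0.33, 0.21, 0.85 and 0.44 in mutant livers, against -0.12, 0.29, 0.50, -0.73 and 0.06 in control livers, where the groups overlapped, while for the other 31 genes the lowest mutant liver, 0.31, was above the highest control liver, 0.24. Among those 31, the recruited or activated class overlapped as well, with the lowest mutant liver at 0.07 and the highest control liver at 0.18.

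**Figure D4:**
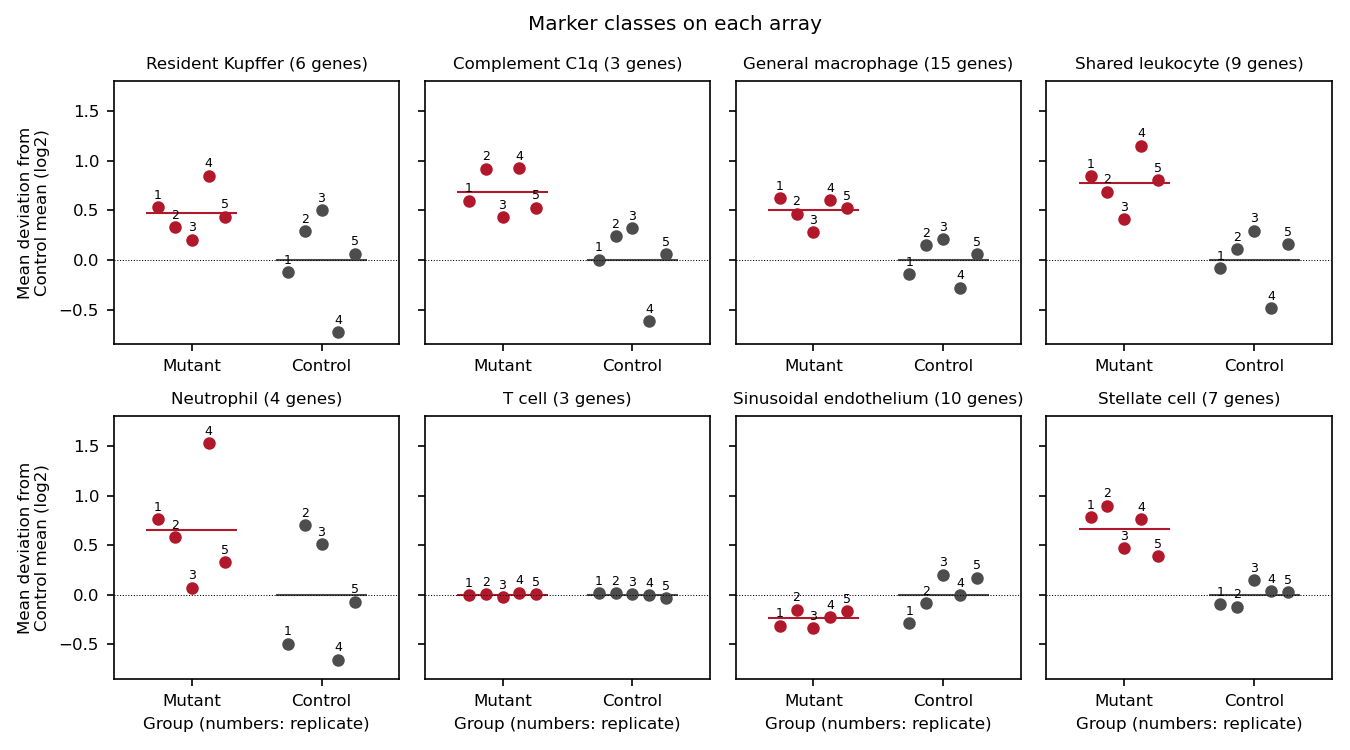
Mean deviation from the control mean (log2, vertical axis) of 4 classes of macrophage markers and of the markers of 4 other cell types in each mutant and control liver (points numbered by replicate; lines are group means). The resident Kupffer class overlaps between the groups, the C1q, general and shared classes do not, and the T cell markers lie near 0 in all livers. The recruited or activated class, not drawn, overlaps too (lowest mutant liver 0.07, highest control liver 0.18).

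The mutant liver nearest to the controls on the first principal component was not the one with the smallest change in macrophage genes. Mutant liver 5, the nearest on that component, showed a median of 0.87 times the mean change of the other 4 mutant livers over the 24 called genes. The same share was 1.08, 0.92, 0.54 and 1.57 in mutant livers 1 to 4, so that mutant liver 3 was the least changed. The 24 genes were called with all 5 mutant livers in the fit, so each liver's own values helped to choose them. These shares are a description of 5 livers, and what sets them apart was not tested.

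**Figure D5:**
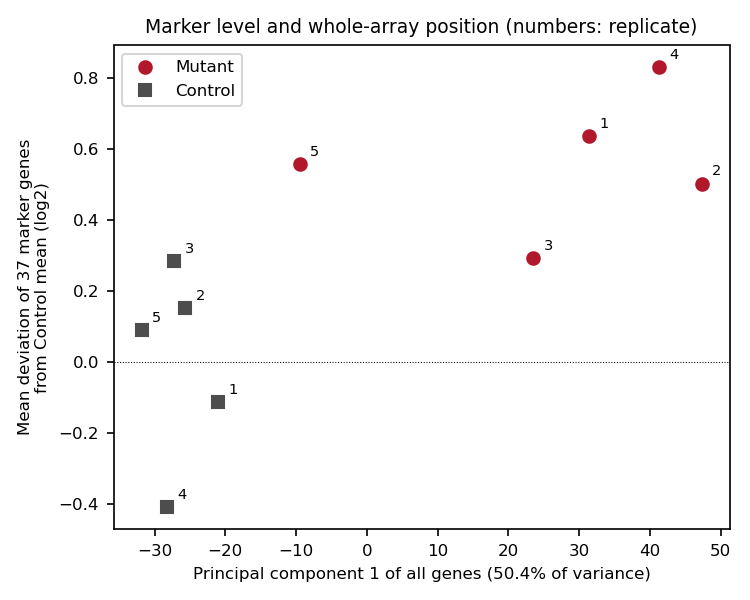
Mean deviation of the 37 markers from the control mean (log2, vertical axis) against the first principal component over all genes (horizontal axis), 1 point per liver. Mutant liver 5 lies at -9.50 on the component with a marker deviation of 0.56, and mutant liver 3 at 23.5 with 0.29.

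Of 17 macrophage growth factors, their receptors and lineage regulators listed, 15 were measured. Of these, 4 were called higher, 0 lower and 11 not called, beside 8.62% of all genes called higher, and the median difference was 0.44. Without 1 array in turn, 2 to 5 were called higher. Csf1, the growth factor for Csf1r, was at 8.07, 8.16, 7.66, 7.81 and 7.55 in mutant livers, against 7.01, 6.93, 7.09, 7.47 and 6.66 in control livers. All mutant livers lay above all controls, and the difference of 0.82 (SE 0.16, adjusted p = 0.0122) was called without any 1 array. Csf2rb, the beta chain shared by the receptors for GM-CSF, interleukin 3 and interleukin 5, was at 10.71, 10.43, 10.78, 11.28 and 9.06 in mutant livers, against 8.29, 8.65, 8.40, 8.03 and 8.76 in control livers. Its difference of 2.02 (SE 0.36, adjusted p = 0.0092), larger than that of any gene on the marker list, was called without any 1 array and was 2.37 without mutant liver 5.

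Maf, a transcription factor of mature macrophages that hepatocytes also express, differed by 0.49 (SE 0.13, adjusted p = 0.0266) and lost its call without mutant liver 1, 2 or 4 or control liver 1 or 5 (up to 0.0636). The fourth called gene, singled out after its value was seen, was Csf2ra, the alpha chain of the GM-CSF receptor, with 0.53 (SE 0.17, adjusted p = 0.0498), called only without mutant liver 3 (up to 0.11 otherwise). Spi1, which encodes PU.1, was also looked up after the values were seen and was not called (0.47, SE 0.15, adjusted p = 0.0572).

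The machinery of digestion did not move as one. Of 18 phagolysosome genes listed, 15 were measured, 4 were called higher and 2 lower, and their median difference was 0.08. Of all genes, 8.62% were called higher and 11.5% lower. Ctsl, the protease cathepsin L, differed by 0.33 (SE 0.08, adjusted p = 0.0243) and lost its call without mutant liver 2 or 4 or control liver 3 or 4 (up to 0.0571). Lgmn, the protease legumain, differed by 0.39 (SE 0.10, adjusted p = 0.0254) and lost its call without mutant liver 1, 2 or 4 or control liver 1 or 4 (up to 0.0587). Lamp1, a lysosomal membrane protein of most cells, was lower, at -0.19 (SE 0.05, adjusted p = 0.025), and lost its call without mutant liver 2 or 3 or control liver 1 or 4 (up to 0.0572). Without 1 array in turn, 0 to 5 of the list were called higher and 0 to 3 lower.

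Genes of iron and erythrocyte handling, a task of Kupffer cells, gave 0 higher and 1 lower call among 7 measured, beside 11.5% of all genes called lower. At an unadjusted p under 0.05, 2 of the 7 were higher and 1 lower. Without 1 array in turn, 0 to 1 were called higher and 1 lower. Hmox1, the haem-degrading oxygenase, was at 8.63, 8.06, 7.17, 9.05 and 7.47 in mutant livers, against 6.66, 7.06, 5.89, 7.31 and 3.72 in control livers. The values spread widely in both groups, and the difference of 1.95 (SE 0.68) was not called (adjusted p = 0.0703). Mutant liver 4, which had the lowest Cd163, had the highest Hmox1. The lower gene was Blvrb, a biliverdin reductase, at -0.96 (SE 0.18, adjusted p = 0.0104), and Slc40a1, the iron exporter ferroportin, was not called at 0.36 (SE 0.12, adjusted p = 0.0629). Of the chemokines that draw monocytes, 5 of 10 were measured and 0 were called, with 0 to 1 called higher without 1 array and 1 higher at an unadjusted p under 0.05, Ccl6, at 0.70 (SE 0.22, adjusted p = 0.0521).

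Markers of other cells were read beside the macrophage genes, and their part in the result was not tested. Of 12 neutrophil markers 4 were measured and 0 called (1 higher at an unadjusted p under 0.05), with a median difference of 0.68. The mean deviation of the 4 was 0.76, 0.58, 0.07, 1.53 and 0.33 in mutant livers, against -0.49, 0.70, 0.51, -0.65 and -0.07 in control livers, with mutant liver 4 highest and control liver 4 lowest, as for the macrophage genes. S100a8 and S100a9, the calprotectin subunits of neutrophils, were not called at 1.18 (adjusted p = 0.155, SE 0.54) and 1.24 (adjusted p = 0.131, SE 0.53). Of 8 T cell markers 3 were measured, 2 of them below 3.60 on all arrays, and the mean deviation was -0.02 to 0.02 in mutant livers, against -0.04 to 0.02 in control livers.

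Among the other cells of the sinusoid, 7 of 8 stellate cell markers were measured and 5 were called higher (3 to 6 without 1 array). This was beside 8.62% of all genes called higher, and the median difference of the 7 was 0.72. Pdgfrb, a growth factor receptor of stellate cells, was higher by 0.57 (adjusted p = 0.00645, SE 0.08). Reln, a secreted matrix protein, was higher by 0.72 (adjusted p = 0.00992, SE 0.13), and Lum, a matrix proteoglycan, by 1.13 (adjusted p = 0.0169, SE 0.25). All 3 were called without any 1 array. All 10 sinusoidal endothelial markers were measured, with 0 higher and 2 lower calls, beside 11.5% of all genes called lower, and a median of -0.14. Lyve1, a hyaluronan receptor, differed by -0.95 (adjusted p = 0.0175, SE 0.21) and was called lower without any 1 array too. Oit3 differed by -0.35 (adjusted p = 0.0414, SE 0.10) and was called only without mutant liver 2 or control liver 2 (up to 0.0917 otherwise). Of 8 hepatocyte markers 7 were measured and 0 called (1 lower at an unadjusted p under 0.05), with a median of -0.07.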

How the data were processed

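RNA of 10 mouse livers, 5 Mutant and 5 Control by their titles, was amplified and biotinylated with the MessageAmp Premier kit, per the labels' protocols, and read on Affymetrix arrays, 1 per liver. The deposited values are taken as log2, from their range of 0.27 to 16.7. How the authors corrected background, summarised and normalized the probes, and the log base, is stated by neither the labels nor the values' table. Array medians of 6.40 to 6.67 lay close together. The number of arrays, not a read depth, limits the precision.

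Of 25995 probe sets, 37 control sets were left out, 21613 had 1 gene symbol in the platform annotation, 638 several and 3707 none. Each gene was represented by its probe set of highest average level across the arrays, giving 12366 genes. These were fitted in R 4.3.3 with lmFit and eBayes of limma 3.58.1, and the two-sided p-values were adjusted by Benjamini-Hochberg across this whole table. Dicer1 and the single probe sets were adjusted over all probe sets. The code was tested on simulated data.

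The members and lists were chosen with earlier results of these data known. Every measured member is named. Values of every array are given for the called members with the smallest p, up to 4 per class, and for members whose probe sets differ in sign. Values of every array for Cd5l, Timd4, Marco, Cd14, Cd163, Mrc1, Ccr2 and of genes on other lists were added after they were seen. Of each other list at most 3 genes with the smallest p are named, besides Csf2ra and Spi1.

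Alternatives were other scalings, another choice of probe set, a filter on dim genes, other variance options, array weights, the replicate number as a block, a term for Y-linked signal and each array left out. Same-numbered mutant and control livers did not deviate together (correlations -0.18 to 0.09), so the numbers were not used as pairs. Nothing states that sex or litter was balanced. Promoters are RefSeq's, on GRCm38.p6.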

Additional observations from a re-analysis of the deposited data

Results flagged for a closer look

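In 74 groups of 5 livers (37 genes, mutant and control), 5 held 1 liver far from the rest, a share of 6.76%. The gap of that liver to its nearest neighbour was over 0.71 of the group's range. About 1 in 20 independent groups would pass this limit by chance. The 74 groups share the same 10 livers and are not independent, so their share cannot be judged against that rate. Mutant liver 4 was the highest for 2 of the 5 flagged groups. It had 5.40 for Ccr2, against 4.17 in the next mutant liver, and 8.83 for Folr2, against 8.51 in the next mutant liver. Control liver 4 was the lowest for the other 3. It had 9.88 for C1qb, with 10.60 in the next control liver, 7.64 for Fcer1g, with 8.31, and 7.19 for Fcgr3, with 8.01. Without control liver 4, C1qb and Fcer1g were still called higher.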

How the results depend on the processing

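Against 24 markers called higher, 20 to 27 were called under other scalings, other choices of probe set, a filter on dim genes, other variance options and array weights, and 18 with a term for Y-linked signal, which 3 livers of each group showed. Leaving out 1 array gave 8 to 19 calls for the whole list and 1 to 2 for the resident class. Adjustment over all probe sets, in place of 1 set per gene, gave fewer calls on the same sets. Under it, Adgre1, C1qc, Cd14, Cd68, Fcgr1, Itgb2, Mpeg1, Ptprc and Slc11a1 were not called (limma adjusted p 0.0503 to 0.0633). The rest of the 24 kept their call. With the replicate number as a block, 5 markers and 1 resident marker were called, although the numbers do not pair the livers. Of all genes, 5.81% were called higher with that block and 8.26% with the Y-linked term. Under the other scalings, probe set choices, filter, variance options and weights, 7.42% to 11.1% of all genes were. No marker was called lower under any of these settings. The resident median minus the median of the others was -0.13 with the mean of all probe sets, and -0.21 to -0.12 without 1 array. Medians without 1 array were 0.36 to 0.62 for the resident markers and 0.53 to 0.77 for the others. Over all genes, leaving out 1 array gave 627 to 1371 higher and 764 to 2160 lower calls. The sign turned for Msr1, to -0.087 with the mean of all probe sets and -0.69 with the most variable one, and for Marco, which gave -0.0046 without mutant liver 4 and -0.17 to 0.40 over all single arrays left out. Laptm5, Cybb, Clec4f, Lyz2 and Lyz1 were called under every setting run, though Lyz1 may repeat the signal of Lyz2. The cause of these changes was not tested. Fewer livers enter the fit when 1 is left out.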

Other observations

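Of 10 inflammatory cytokines and macrophage effector genes 7 were measured and 0 were called in the limma fit, with 1 higher and 1 lower at an unadjusted p under 0.05 and a median difference of -0.00. Without 1 array in turn, 0 were called higher and 0 to 2 lower. Of 7 B cell markers 3 were measured and 0 called (0 higher and 1 lower unadjusted), with a median of -0.21. Of 7 NK cell markers 3 were measured, 2 of them below 3.60 on all arrays, and 0 called (0 unadjusted), with a median of 0.33. Of 7 dendritic cell markers 2 were measured and 0 called (0 unadjusted), with a median of 0.01.

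Of 8 erythroid markers 4 were measured and 0 called (0 unadjusted), with a median of -0.49. Of 5 proliferation genes 4 were measured and 0 called (0 unadjusted), with a median of -0.23. Their mean deviation was -1.24 to 0.41 in mutant livers and -1.35 to 0.99 in control livers, a spread wider than that of the macrophage genes. Of 5 biliary markers 4 were measured and 0 called (1 higher unadjusted, and 0 to 1 called higher without 1 array), with a median of 0.28. Without any 1 array, 0 of the measured B cell, NK cell, dendritic cell, erythroid and proliferation genes were called.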
